A study of Mus musculus with 4 samples.

Results

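Small leucine-rich proteoglycans (SLRPs) were followed across 4 expression arrays of mouse vascular smooth muscle cells, the contractile cells of the artery wall. The family members Bgn, Dcn, Lum, Fmod, Ogn, Omd, Aspn, Prelp, Kera and Epyc were looked up by the RefSeq accession of each probe set, and 4 of the 10 were found, Bgn, Dcn, Lum and Fmod, with 1 probe set each. They were 4 of the 909 named genes on an array of 1246 probe sets built largely from genes of sugar chains and signalling proteins. Ogn, Omd, Aspn, Prelp, Kera and Epyc had no named probe set and are not analysed here.

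All cells were wild type and were kept in an osteogenic medium, which drives them towards bone-like cells. In the control arm no compound was added, and in the treated arm the medium also held 0.4 mM streptozotocin (STZ), a glucosamine-containing nitrosourea best known as a toxin of pancreatic beta cells. The titles name WT2 and WTA as the sources of the cells, called cultures below, and both arms hold 1 array from each. The tested comparisons rest on 2 arrays against 2, and differences within a culture or within an arm rest on 1 array against 1 and have no test. The labels give neither the strain nor the age of the mice, leave unsaid whether WT2 and WTA are different mice, and carry a mark "3w" that was not interpreted. The p-values therefore measure only the spread between these arrays, which may be technical. Unless the arrays are paired by culture, that spread includes the difference between WT2 and WTA. In limma the spread used for a probe set is its own, moved towards a value shared by all probe sets. With so few arrays, the SEs and intervals below rest in good part on that shared value. The study asked how genes of glycan metabolism respond to streptozotocin while the cells calcify.

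SLRPs are secreted proteins of the extracellular matrix with a core of leucine-rich repeats that binds collagen, and they help to set the width and spacing of collagen fibrils. Biglycan (Bgn) and decorin (Dcn) form part of the family's class I and carry chondroitin or dermatan sulfate chains. Lumican (Lum) and fibromodulin (Fmod) form part of class II and can carry keratan sulfate. Biglycan and decorin also bind growth factors such as TGF-beta. In arteries these proteins are made by smooth muscle cells and adventitial fibroblasts and are found in the matrix of plaques and calcified lesions.

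Of the 4 measured SLRPs, Lum, Fmod and Dcn had lower values with streptozotocin than without it in both cultures, and Bgn showed hardly any difference. Relative to control, the mean treated level corresponded to 56.3% for Lum, 73.5% for Fmod, 79.0% for Dcn and 99.9% for Bgn. None of these differences passed the test. With limma, 0 of 1246 probe sets (0%) reached an adjusted p under 0.05, and 25 had an unadjusted p under 0.05. A difference in the same direction in both cultures was itself common, since 28.5% of all probe sets, and 32.3% of the 623 above the median level, were lower with streptozotocin in both. The family's median difference was -0.39 on the log2 scale, beside -0.0081 over all probe sets and -0.018 over those above the median level.

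**Figure D1:**
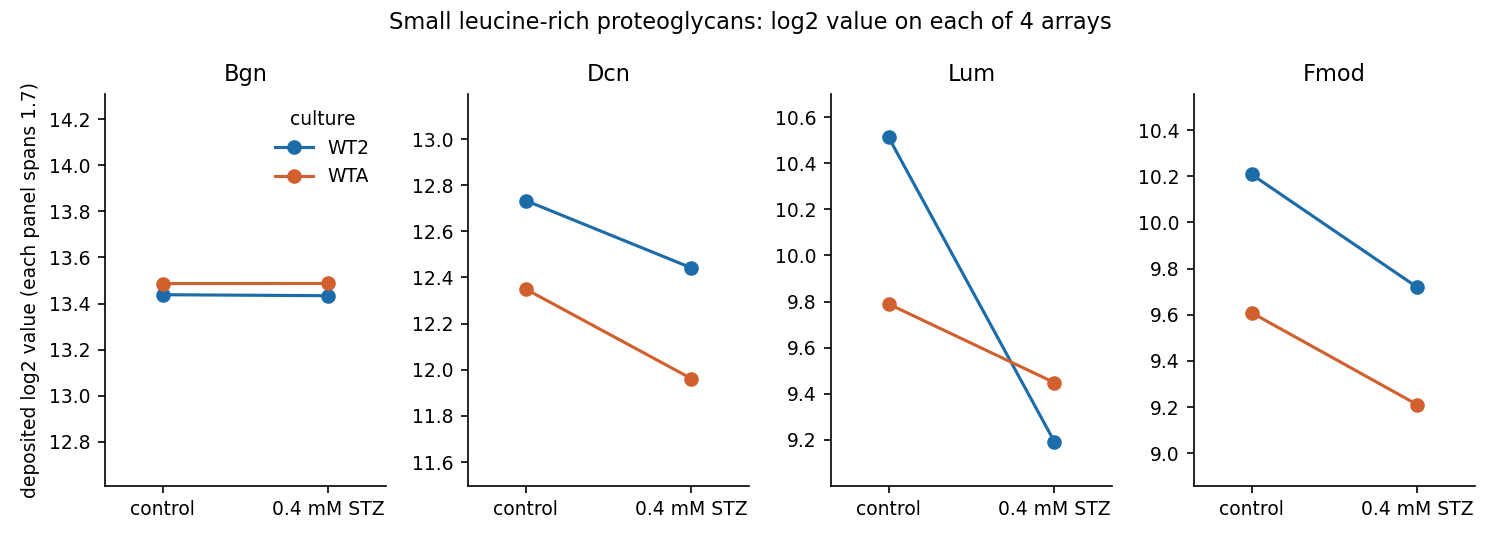
Deposited log2 value of Bgn, Dcn, Lum and Fmod (1 panel each, all panels spanning the same log2 width) in control cells and in cells with 0.4 mM streptozotocin (STZ); points are single arrays and lines join the 2 arrays of a culture. Bgn is flat near 13.4 to 13.5, the lines of Dcn and Fmod slope down side by side with WT2 above WTA, and the lines of Lum cross.

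Among the measured members, biglycan had the narrowest range. The log2 value of Bgn was 13.44 in WT2 control cells, 13.43 in WT2 cells with streptozotocin, 13.49 in WTA control cells and 13.49 in WTA cells with streptozotocin. All 4 arrays thus lay within 0.053 of each other. Bgn was 1 of 23 probe sets with a range that narrow, 8 of them among the 623 above the median level. The treated and control means were 13.46 ± 0.038 and 13.46 ± 0.034 (SD, n = 2 each), and the groups overlapped. The difference was -0.0019 (SE 0.085, limma adjusted p = 1), with a 95% interval of -0.25 to 0.24, which corresponds to 84.4% to 118% of the control level. Only 3 probe sets had a higher mean than Bgn, so its signal lay near the top of the measured range, and whether differences are narrowed at such brightness was not tested.

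Decorin, like biglycan a member of class I, had lower treated values in both cultures. The log2 value of Dcn was 12.73 in WT2 control cells and 12.44 with streptozotocin, and 12.35 in WTA control cells and 11.96 with streptozotocin. The treated array was the lower one in each culture, but the treated WT2 array stood above the untreated WTA array, so the groups overlapped. Streptozotocin minus control was -0.29 in WT2 and -0.39 in WTA, which is 81.7% and 76.4% of the control level. The difference over all arrays was -0.34 (SE 0.24, 95% interval -1.03 to 0.35, limma adjusted p = 1). The probe set of Dcn carries the mark "s", which can stand for probes shared between transcripts.

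Fibromodulin, which binds collagen and takes part in its cross-linking, followed the same order of arrays as decorin. The log2 value of Fmod was 10.21 in WT2 control cells and 9.72 with streptozotocin, and 9.61 in WTA control cells and 9.21 with streptozotocin. Here too the treated array was lower in each culture, by 0.49 in WT2 and by 0.40 in WTA, and the groups overlapped because WT2 stood higher than WTA. Fmod minus its control was -0.44 overall (SE 0.30, 95% interval -1.31 to 0.42, limma adjusted p = 1). The difference in WTA minus that in WT2 was 0.091 for Fmod and -0.096 for Dcn, so the streptozotocin difference of both genes was close in the 2 cultures. For Dcn and Fmod the order from high to low was WT2 control, WT2 with streptozotocin, WTA control, WTA with streptozotocin, an order that 10.7% of all probe sets had.

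Lumican, the collagen-binding proteoglycan known from the cornea and from scar tissue, had the largest difference of the family and the most uneven one. The log2 value of Lum was 10.51 in WT2 control cells and 9.19 with streptozotocin, against 9.79 in WTA control cells and 9.45 with streptozotocin. Lum was thus the one member whose treated arrays both lay below both control arrays, which was the case for 13.8% of all probe sets. The treated level was 40.1% of control in WT2 and 79.0% in WTA. Over all arrays the difference was -0.83 (SE 0.29, 95% interval -1.67 to 0.014, limma adjusted p = 1, unadjusted p = 0.0524). Lum had the 7th lowest difference of the 1246 probe sets, Fmod the 27th and Dcn the 47th, while Bgn was 652nd. In WT2 alone Lum ranked 5th lowest, and in WTA it ranked 72nd, behind Fmod (52nd) and Dcn (57th).

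For Lum the WT2 control array held the highest and the WT2 treated array the lowest value of the 4. Without the WT2 control array the difference of Lum was -0.47, and without the WT2 treated array it was -0.70. Without the WTA control array it was -1.19, and without the WTA treated array -0.96. Leaving out 1 array also mixes the culture difference into the value: for Fmod the values ran from -0.74 to -0.14 and for Dcn from -0.58 to -0.10. For Fmod it was -0.14 without the WT2 control array and -0.19 without the WTA treated array, and for Dcn -0.15 and -0.10. Across the table, the WT2 arrays also stood further apart than the WTA arrays. The streptozotocin differences of all probe sets had an SD of 0.402 in WT2 and 0.220 in WTA, and the array pairs correlated at 0.988 and 0.997. The array medians lay between 5.83 and 5.87.

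**Figure D2:**
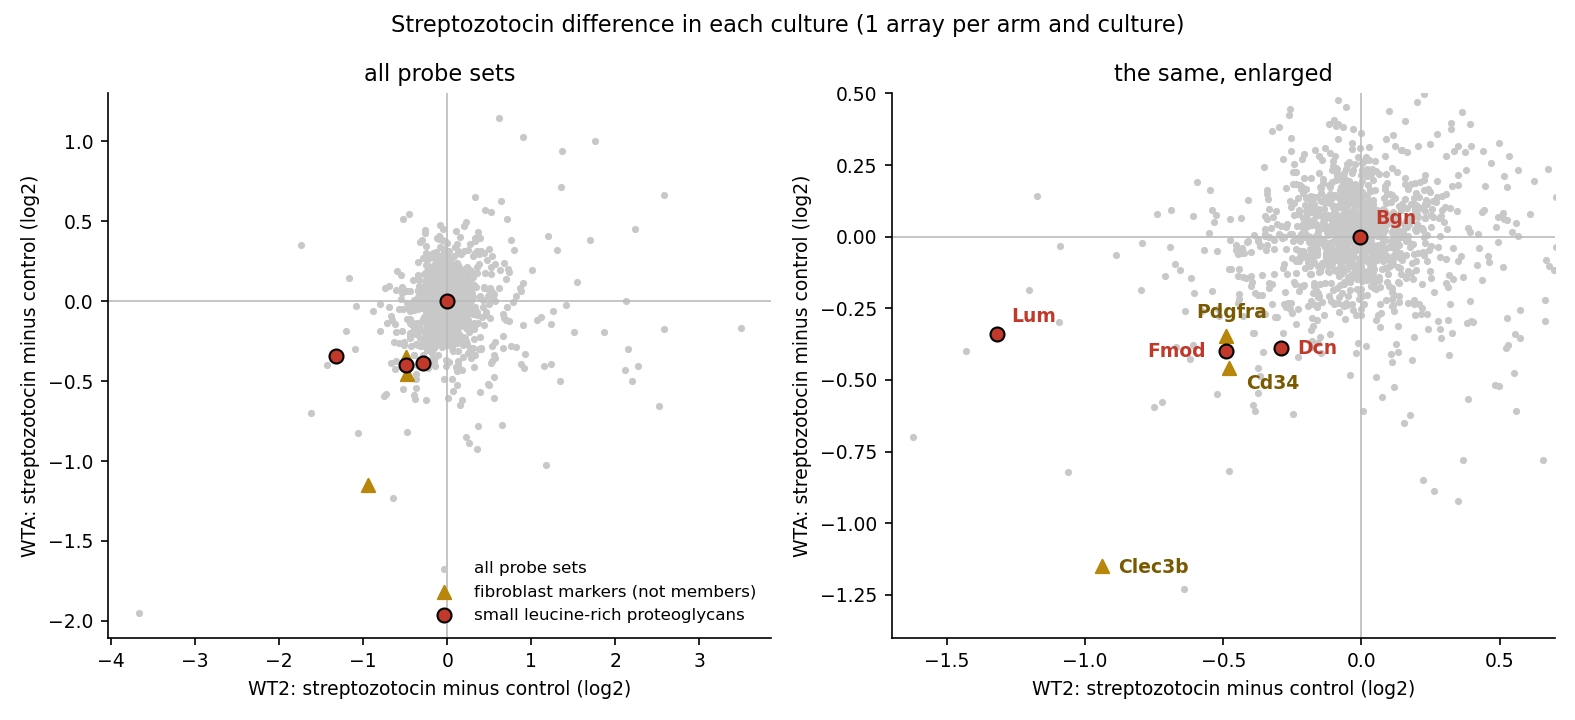
Streptozotocin minus control on the log2 scale in WT2 (horizontal axis) and WTA (vertical axis), with all probe sets in grey, the 4 SLRPs in red and 3 fibroblast markers as triangles; the right panel enlarges the left. Dcn and Fmod lie near -0.4 on the WTA axis with Cd34 and Pdgfra close by, Lum lies far to the left, and Bgn lies at the origin.

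Because the same 2 cultures were present in both arms, the arrays could also be compared as pairs. With the replicate number as a block in limma, the intervals for Fmod and Dcn narrowed to -0.72 to -0.17 and -0.62 to -0.065. The SEs behind them, 0.0959 and 0.0963, were close to that of Bgn (0.0930) and to the median over all probe sets (0.102). These widths thus owe much to the spread that limma shares between probe sets. For Lum the paired interval was -1.60 to -0.058, and for Bgn -0.27 to 0.26. In that fit Fmod, Lum and Dcn, 3 of the 4 members, had lower values at an unadjusted p under 0.05 (0.0116, 0.0408 and 0.0271), beside 3.45% of all probe sets that were lower at that level. In the fit without the block 0 of the 4 members did, beside 1.28% of all probe sets. The paired fit called 0 of 1246 probe sets (0%) after adjustment, and its adjusted p was 0.625 for Fmod, 0.711 for Dcn, 0.716 for Lum and 1.00 for Bgn.

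**Figure D3:**
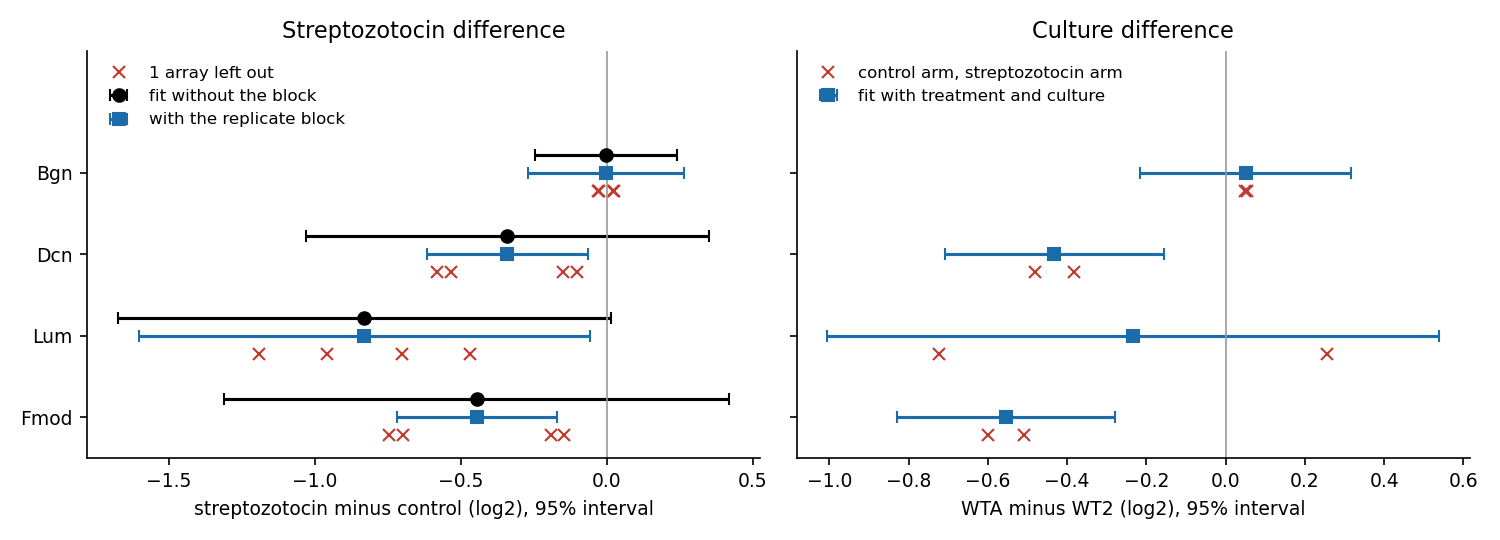
Left, streptozotocin minus control (log2) for each SLRP, with 95% intervals from limma without (circles) and with (squares) the replicate block, and crosses for the values with 1 array left out. Right, WTA minus WT2 (log2) with its 95% interval, and crosses for the value in each arm. The intervals of Dcn and Fmod are much narrower with the block, and that of Lum is nearly as wide in both fits.

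Set against each other, the cultures gave lower values of Fmod and Dcn in WTA, though both missed the threshold. Fmod was lower in WTA than in WT2 by 0.60 in the control arm and by 0.51 in the treated arm, and Dcn by 0.38 and 0.48. These were 2 of the 4 members with lower values in WTA in both arms, beside 35.5% of all probe sets. In a limma fit with treatment and culture, WTA minus WT2 was -0.55 for Fmod (SE 0.096, 95% interval -0.83 to -0.28, adjusted p = 0.104). It was -0.43 for Dcn (SE 0.096, 95% interval -0.71 to -0.16, limma adjusted p = 0.156). Both had an unadjusted p under 0.05 (0.00553 and 0.0129), as did 9.55% of all probe sets in that direction, and neither was among the 28 probe sets called (2.25%). Bgn differed by 0.051 (SE 0.093, limma adjusted p = 0.857). Lum differed by -0.72 between the control arrays and by 0.26 between the treated ones, which gave -0.23 overall (SE 0.27, limma adjusted p = 0.761). The WT2 control array enters both the streptozotocin difference of WT2 and the culture difference of the control arm, so these large values of Lum share 1 array.

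The measured markers of fibroblasts, another cell type of the artery wall, were also lower with streptozotocin in both cultures. Apart from Dcn and Lum, 3 of 8 listed fibroblast markers were measured: Pdgfra, the alpha receptor of platelet-derived growth factor, Cd34, a sialomucin of adventitial progenitors that endothelial cells also make, and Clec3b, the plasminogen-binding tetranectin. The treated array was the lower one in both cultures for all 3, as for 28.5% of all probe sets. The differences over all arrays were -0.42, -0.47 and -1.04, and limma gave each an adjusted p of 1. Their summed level, on the log2 scale, was 12.95 and 12.06 in WT2 and WTA control cells and 12.43 and 11.64 with streptozotocin, which is the order of arrays found for Dcn and Fmod. Pdgfra, at 12.54 in WT2 control cells, made up most of that sum. Pdgfra and Cd34 had that order singly, as did 10.7% of all probe sets, and Clec3b did not. Their culture differences were -0.82 for Pdgfra, -1.07 for Cd34 and -0.51 for Clec3b, of which that of Cd34 passed (limma adjusted p = 0.0445, and 0.0631 and 0.136 for the others). Their part in the SLRP values was not tested, and in bulk RNA fewer cells of a type and less RNA per cell cannot be told apart.

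Coverage of the other cell types was uneven. Of 9 smooth muscle markers, among them Acta2 and Myh11, and of 8 osteoblast markers, 0 had a named probe set, so neither the labelled cell type nor the bone-like state could be checked on its defining genes. Of 7 chondrocyte markers 1 was measured, the aggrecan gene Acan, which was dim, at 5.23 or below on all arrays. The 5 measured endothelial markers summed to 6.85 and 7.08 in WT2 without and with streptozotocin and to 9.42 and 9.71 in WTA. Esm1 alone reached 4.48 in WT2 and 9.33 in WTA. Of the 5, only Esm1 passed between the cultures, with WTA minus WT2 at 4.93 (limma adjusted p = 0.00304). Emcn and Selp differed by 1.22 and 0.787 (limma adjusted p = 0.0873 and 0.0897). Pecam1 and Sele differed by 0.148 and 0.049 (limma adjusted p = 0.570 and 0.916), and both lay under the median of every array. The 6 measured leukocyte markers summed to between 8.03 and 8.39 on the 4 arrays. Csf1r, at 7.40 to 7.92, made up most of that sum. The others lay at 5.47 or below, under the median of every array.

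The genes that build the chains carried by Bgn and Dcn went in both directions. Of 22 listed genes for chondroitin and dermatan sulfate 18 were measured, 0 passed the streptozotocin test in either direction, and the median difference was -0.057. In both cultures 8 of the 18 were lower, beside 28.5% of all probe sets, and 2 were higher. Csgalnact1, which starts chondroitin sulfate chains, had the largest difference, 0.80, with 9.14 and 10.34 in WT2 without and with streptozotocin and 9.55 and 9.96 in WTA. Dsel, an epimerase-like gene of dermatan sulfate, followed at -0.34, and it had the list's largest culture difference, -0.81 (limma adjusted p = 0.0702). Chst14, the sulfotransferase of dermatan sulfate, differed by 0.14 in WT2 and -0.13 in WTA.

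For keratan sulfate, the chain type of Lum and Fmod, all 12 listed genes were measured. Again 0 passed the streptozotocin test, and the median was -0.043. In both cultures 4 of the 12 were lower, beside 28.5% of all probe sets, and 0 were higher. Chst2, a sulfotransferase that acts on N-acetylglucosamine, had the largest difference of this list in both comparisons. Its log2 value was 8.14 in WT2 control cells and 7.41 with streptozotocin, and 7.19 in WTA control cells and 6.61 with streptozotocin. The 4 arrays of Chst2 stood in the same order as those of Fmod and Dcn. Its differences were -0.65 for streptozotocin (limma adjusted p = 1) and -0.88 for WTA minus WT2 (limma adjusted p = 0.0534).

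Among 33 listed binding partners and receptors of SLRPs 15 were measured, and 0 passed the streptozotocin test, with a median of 0.00. In both cultures 5 of the 15 were lower, beside 28.5% of all probe sets, and 5 were higher. Tlr2 and Tlr4, the receptors through which soluble biglycan acts on macrophages, and the collagen genes Col1a1, Col1a2 and Col3a1 had no named probe set. Cd44, the hyaluronan receptor, and Met, the receptor of hepatocyte growth factor, differed by 0.57 and 0.54. Tgfb3, a TGF-beta ligand, differed by -0.37, the WT2 value being -0.54 and the WTA value -0.19.

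Set beside the other proteoglycans, the SLRPs had the lower median. Of 32 other core and link proteins 26 were measured, 0 passed the test, and the median difference was -0.016. With streptozotocin 7 of the 26 were lower in both cultures, beside 28.5% of all probe sets, and 9 were higher in both. The differences of the 26 ran from -0.50 for Gpc3, a glypican of the cell surface, to 0.41 for Esm1, a dermatan sulfate proteoglycan of endothelial cells. Lum at -0.83 thus lay below all 26. Fmod and Dcn lay within that range, and Gpc6, another glypican, lay near them at -0.42 and was lower in both cultures. All 4 SLRPs had a mean above the median level, and 17 of the 26 others did. The other leucine-rich proteoglycans on the list, such as Podn and Tsku, had 0 of 8 measured.

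**Figure D4:**
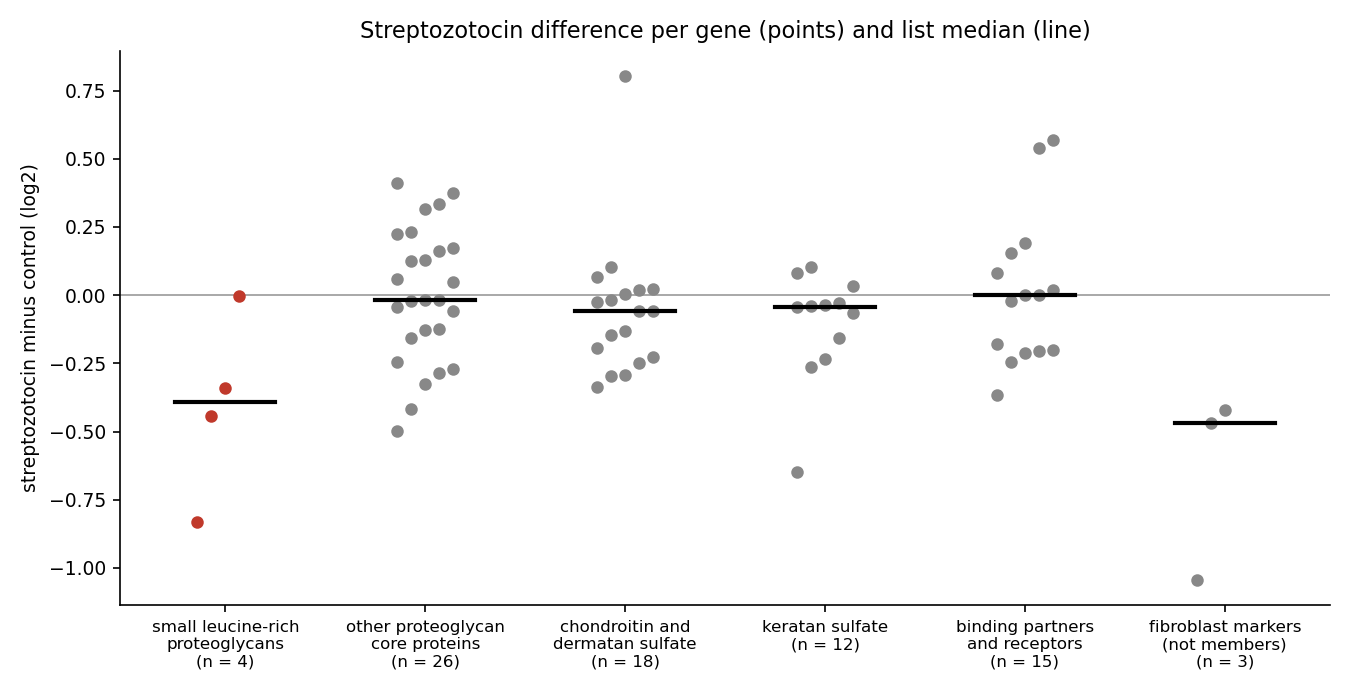
Streptozotocin minus control (log2) for each measured gene (points) and the list median (black line), for the SLRPs in red and for 5 other lists in grey. The SLRP median lies at -0.39, the medians of the proteoglycan, chain-building and partner lists lie between -0.057 and 0.00, and that of the 3 fibroblast markers at -0.47.

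The genes with the profile over the 4 arrays most like that of Lum and of Fmod, the members with the widest ranges (1.32 and 0.998), were sought among 905 other named genes. Likeness was the root mean square distance between log2 profiles, each centred on its own mean, a description over 4 arrays. For Lum the nearest were Pgm5, a phosphoglucomutase-like protein of adhesion sites in muscle (distance 0.158), Angptl1, an angiopoietin-like protein (0.183), and Wnt2b, a Wnt ligand (0.197). For Fmod they were Igfals (0.066), which stabilises insulin-like growth factor complexes in blood, Pgm2l1 (0.075), which makes sugar bisphosphates, and Fut11 (0.075), of the fucosyltransferase family.

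The start regions of Bgn and Fmod are shown as those of a member with hardly any difference and of one with lower treated values. RefSeq's table (GRCm38.p6) held the window of 250 bases before to 50 bases after the start for 2 of the 4 measured members. The windows are chrX:73483351-73483650 for Bgn and chr1:134037004-134037303 for Fmod, both on the plus strand, and capitals mark matches to a GC box.
Bgn: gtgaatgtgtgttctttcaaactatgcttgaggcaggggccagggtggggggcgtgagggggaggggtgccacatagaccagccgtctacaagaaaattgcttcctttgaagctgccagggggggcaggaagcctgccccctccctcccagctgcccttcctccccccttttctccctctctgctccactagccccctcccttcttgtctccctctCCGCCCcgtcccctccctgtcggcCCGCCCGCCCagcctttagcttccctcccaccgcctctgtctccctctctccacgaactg
Fmod: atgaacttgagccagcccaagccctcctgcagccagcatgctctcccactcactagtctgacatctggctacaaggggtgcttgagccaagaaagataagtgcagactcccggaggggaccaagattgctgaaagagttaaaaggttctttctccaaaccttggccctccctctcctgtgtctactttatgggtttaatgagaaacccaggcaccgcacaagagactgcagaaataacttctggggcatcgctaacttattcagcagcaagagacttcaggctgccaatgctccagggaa

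The window of Bgn was richer in G and C (63.7%) than that of Fmod (51.0%), beside a median of 52.7% over all windows of that length. The motifs searched on both strands were the GC box GGGCGG, the TATA box TATAAA, the core bound by Runx factors TGTGGT and the AP-1 motif TGANTCA. They occurred in 35.7%, 13.6%, 16.8% and 7.81% of the 32851 windows of that length. Bgn held 3 GC boxes, all on the minus strand, at -34 to -29, -10 to -5 and -6 to -1 relative to the start, of which the last 2 overlap by 2 bases, and 0 of the other motifs. Fmod held 0 matches to any of the 4 motifs. A match is a description of letters only, and the arrays do not measure binding. In the same annotation Dcn and Lum are adjacent protein-coding genes, followed by Kera and Epyc, while Fmod lies next to Prelp.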

How the data were processed

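The 4 arrays were deposited as log2 values, 1 per probe set. The submitters' processing notes name RMA, and its version is not given in the sources analysed. Per the labels' protocols, RNA was extracted with Trizol and 0.5 ug was labelled by the Affymetrix procedure. By default RMA makes the arrays' distributions equal, so that a shift of most genes would not show. In the deposited values the distributions were close but not equal, with upper quartiles between 8.58 and 8.69. With RMA, differences of dim probe sets come out too small. The number of arrays limits the precision.

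Probe sets were named by accession (GRCm38.p6 table, names only): 963 of 1246 had 1 symbol. A gene with several probe sets was represented by the brightest. Streptozotocin was compared with control over all 1246 probe sets with limma 3.58.1 in R 4.3.3 without a block (2 residual degrees of freedom), and WTA with WT2 in a fit with treatment (1 residual degree of freedom), with Benjamini-Hochberg adjustment and a threshold of 0.05. Within a culture there is 1 array per arm and no test. The replicate number names the same culture in both arms, so it pairs the arrays, and same-numbered arrays deviated together (correlation 0.600). The fits were tested on simulated data. Those had the same spread for every probe set and no culture difference, so they cannot show how the fit without the block performs on these arrays.

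All members found were named, and from each list up to 3 genes with the largest streptozotocin differences, besides markers, genes named as not measured, and Chst14, chosen after its values were seen. Apart from members and markers, culture differences were given only for genes of the chain-building lists. Members, lists and rules were chosen with earlier results of these data known, so they are not independent evidence. Alternatives were the block, leaving out each array, centring or quantile normalizing the arrays, dropping probe sets under the median level, a trended or robust prior, a threshold of 0.1 and averaging a gene's probe sets. A fit with culture alone was added after seeing the data.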

Additional observations from a re-analysis of the deposited data

Results flagged for a closer look

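In 2 results a difference between single arrays changed sign, for Bgn between the cultures and for Lum between the arms, and neither change was tested. The streptozotocin difference of Bgn was -0.0042 in WT2 and 0.00053 in WTA, a difference between the cultures of 0.0048 that is far inside the interval of the Bgn difference. For Lum, WTA minus WT2 was -0.72 in control cells and 0.26 with streptozotocin, a change of 0.98 between the arms.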

How the results depend on the processing

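With the replicate block limma called 0 probe sets for streptozotocin, as in the other settings run, each array left out included (0 to 0), with a smallest adjusted p of 0.441. Lum, Fmod and Dcn kept their negative streptozotocin difference in every setting run, and the count of members lower in both cultures was also 3 after median centring, after quantile normalization and with the mean of all probe sets. The median over the 4 members was -0.34 after quantile normalization and ran from -0.64 to -0.15 with 1 array left out. The near-zero difference of Bgn turned positive after median centring (0.010) and quantile normalization (0.024), and ran from -0.028 to 0.025 with 1 array left out. For WTA minus WT2, Fmod, Dcn and Lum passed in no setting with a test (smallest adjusted p 0.0612 for Fmod, 0.115 for Dcn and 0.679 for Lum), and with 1 array left out Lum ran from -0.72 to 0.26. The 28 probe sets called between the cultures became 8 after quantile normalization, 2 among those above the median level, 49 with a robust prior, 64 at an adjusted p under 0.1 and 13 with culture alone. With culture alone and 1 array left out the count was 12 without the WT2 control array, 18 without the WT2 treated array and 0 without either WTA array. On 3 arrays that fit takes its residual spread only from the culture that keeps both arrays, which is WT2 where a WTA array is left out. The SD of the streptozotocin differences was 0.402 in WT2 and 0.220 in WTA. The cause of the differing counts was not tested. Treatment and culture on 3 arrays leave no residual degrees of freedom, so that count was not run there, and the mean of all probe sets equals the main value because each member has 1.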
